A study of Drosophila melanogaster with 2 samples.

Results

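On the gene-rich part of the Drosophila melanogaster X chromosome the authors' caller reported places with more DNA from anti-Deformed than from mock antibody. These places are called euchromatic X regions here. They were chosen by position alone, as the X regions of the authors' larger list with a centre at or below 20.39 Mb, leaving out centres between 2.67 and 2.705 Mb, where the 2 regions of highest fold lie. This gave 316 of the 3898 regions of the larger list and 316 of its 431 X regions, and the other 115 were 113 regions beyond the bound and the 2 left out. The stricter list held 70 regions by the same rule, of 1079 in all and 138 on X. Chromatin came from wild type Oregon R embryos 5 to 9.5 hours old, at stages 9 to 12, of a sex that the labels do not give. An anti-Deformed antibody raised in guinea pig gave 1 library, and mock guinea pig IgG gave the control. Whole embryos were used, so cells with and without Deformed were mixed in both libraries. Each group held 1 library, no test between groups was possible, and none of the values has a replicate error.

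Deformed is the Hox protein that sets the identity of the mandibular and maxillary head segments, and it acts by binding enhancers of target genes, often together with cofactors. The X chromosome of the fly is present once in males and as a pair in females, and in males its genes are raised in output by a dosage compensation complex that spreads along it. Fly telomeres carry no simple telomerase repeats but arrays of retrotransposons, followed inward by subtelomeric repeats. The study asked which regulatory regions Deformed occupies in embryos.

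Each region carries the whole number of Deformed tags found in it and a length. It also carries a fold enrichment at its summit over the background that the caller set for it. The last value is a score, which is minus 10 times the log10 of the caller's p-value. All 4 are the authors' own values from their region caller. After duplicate filtering the Deformed library held 15547495 tags and the control 12694075, which is 13.0 and 10.6 tags per 100 bases of the effective genome of 120 Mb. Intervals below are exact 95% intervals, Poisson for tags and densities and binomial for shares, and cover counting error only. Places are named by position, and no gene is assigned to a region, since the gene positions at hand were of another build.

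The euchromatic X carried few regions for its length. Its 316 regions lay on 20.4 Mb, or 15.5 regions per Mb (13.9 to 17.3), against 31.9 per Mb (30.7 to 33.1) on the autosomal arms 2L, 2R, 3L and 3R outside the 2 Mb next to their centromeres. The 4 arms ran from 26.5 per Mb on 2R to 34.7 on 2L, all above the X interval. In the stricter list the X density was 3.44 per Mb (2.68 to 4.34) and the autosomal density 6.86 (6.32 to 7.43). Beyond the bound, towards the centromere, the X held 56.3 regions per Mb (46.4 to 67.7), while the last 1 Mb inside the bound held 16. At the bound, the last region inside lay at 20354913 to 20355073 with 18 tags and a fold of 5.60, and the first outside at 20395649 to 20395791 with 15 tags and a fold of 4.15. On either side of the interval left out, the nearest regions were at 2663445 to 2663536, with 29 tags and a fold of 3.42, and at 2755880 to 2756050, with 18 tags and a fold of 4.20.

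Most X regions were short and held few tags. The median length was 175 bases (quartiles 153 and 216, range 77 to 3103) and the median tag count 19 (quartiles 16 and 26, range 13 to 514), and 176 regions, 55.7%, had fewer than 20 tags. On the autosomal arms outside the proximal 2 Mb the medians were 200 bases and 22 tags, and 35.6% of 2821 regions had fewer than 20 tags. The median fold was 4.67 on X (interval of the median 4.52 to 4.67) and 4.38 on these autosomal arms (4.33 to 4.43). In the larger list X regions thus had fewer tags and a higher fold. In the stricter list the order of tags and lengths turned, with medians of 35 tags (26 to 45) and 202 bases on X against 23 tags (22 to 24) and 189 bases on the autosomal arms, and the fold stayed higher on X, at 5.77 against 4.92. This turn was not seen in the 39 stricter X regions outside the first 50 kb and the dense stretch, both described below. Their medians were 23 tags (20 to 30), 186 bases and a fold of 5.60. The median of tags per 100 bases was 10.8 on X and 10.9 on the autosomal arms, both under the genome mean of 13.0. Within the 316, tags followed length (Spearman's rho 0.84 across regions, which share 1 library) and fold did not (rho 0.00056).

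The folds of X regions sat on a few repeated values. A fold of 3.74 was given to 28 regions, 4.20 to 46, 4.67 to 51, 5.14 to 28 and 5.60 to 18, and these values are 0.46 or 0.47 apart. Together they covered 171 of 316 X regions, 54.1% (48.4 to 59.7), against 720 of 2821 autosomal regions, 25.5% (23.9 to 27.2). The 5 values were picked as the commonest on X in the larger list, and the order of the shares turned in the stricter list, with 12 of 70 X regions, 17.1% (9.18 to 28.0), against 138 of 607 autosomal regions, 22.7% (19.5 to 26.3). It did not turn for the stricter X regions outside the first 50 kb and the dense stretch, with 11 of 39, 28.2% (15.0 to 44.9). The 5 values show as horizontal rows in the plot of length and fold. The backgrounds behind the folds were not analysed here. The part of the lower copy number of X in males in the number of regions called per Mb, the tags and the folds was not tested.

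**Figure D1:**
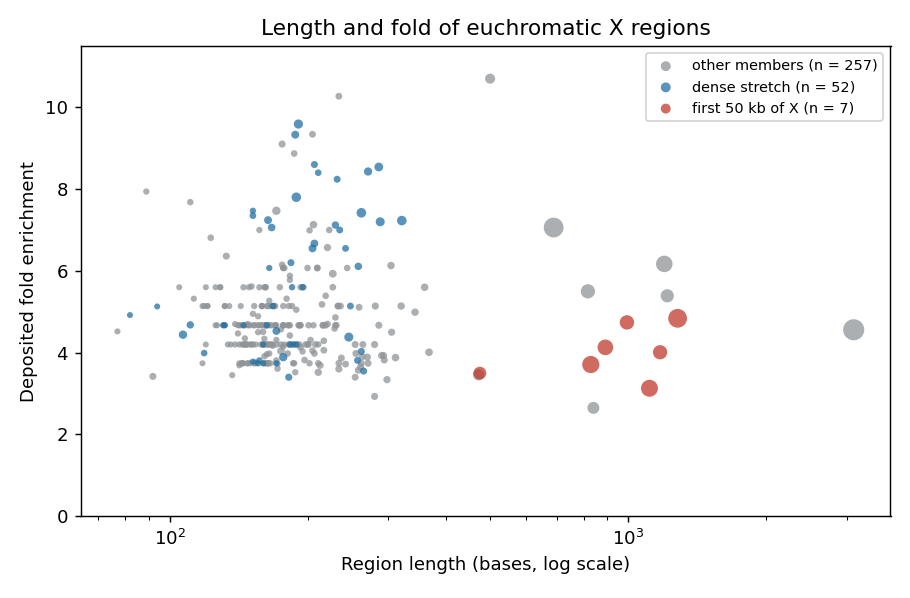
Length (bases, log scale) and deposited fold of the 316 euchromatic X regions, with the area of each point growing with its tag count. The 7 regions of the first 50 kb (red) are long, with folds of 3.13 to 4.84, the 52 of the dense stretch (blue) are at most 321 bases long and reach a fold of 9.59, and many of the other 257 (grey) sit on repeated fold values.

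The tip of X carried a block of 7 regions that followed each other almost without a break. It ran from 6186 to 14127, and its regions covered 6759 of these 7942 bases, 85.1%. From the telomeric side, the region at 6186 to 7298 held 321 tags (287 to 358) at a fold of 3.13, and its neighbour at 7328 to 7802 held 170 tags (145 to 198) at a fold of 3.50. The region at 8177 to 9068 held 268 tags (237 to 302) at a fold of 4.13. The next, at 9090 to 10371, held the most, 400 tags (362 to 441), at the block's highest fold, 4.84. The region at 10439 to 11432 held 223 tags (195 to 254) at a fold of 4.74, that at 11931 to 12759 held 331 (296 to 369) at 3.71, and the innermost, at 12954 to 14127, held 218 (190 to 249) at a fold of 4.01. All 7 were thus rich in tags, while their folds lay on both sides of the X median of 4.67, 5 below it and 2 above.

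The gaps between neighbours in this block were 21 to 498 bases, and the summits stood 891, 959, 1370, 987, 1258 and 1480 bases apart. Tags per 100 bases ran from 18.6 in the innermost region to 39.9 in the region at 11931, all above the genome mean of 13.0. The upper quartile of all X regions, 11.6, was below that mean. The 7 regions were 2.22% of the X regions and held 1931 of their 10725 tags, 18.0%. Their scores were 70.81 to 221.55, and all 7 were also in the stricter list, 5 of them with the same start and end. The deposited false discovery rate (FDR), which compares the number of regions called with the libraries exchanged, was 100% for each. After the block no region was called for 173 kb, up to 186867 to 187053, which held 23 tags at a fold of 8.87.

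The other arms whose telomere lies at base 1 had no such block. In the larger list 2L had 0 regions in its first 50 kb and 3L had 1, at 38180 to 38377 with 20 tags and a fold of 4.57, and in the stricter list both had 0. The telomeric ends of 2R and 3R lie at the other side, where the length of the arm was not known here. How the authors' alignment placed tags that match several places is not given in the sources used here, and whether the block consists of repeats was not examined, since no genome of this build was used.

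**Figure D2:**
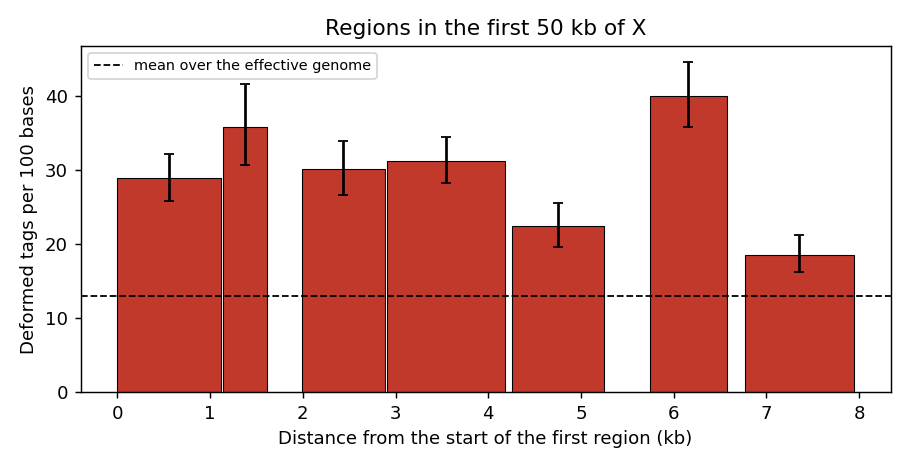
Deformed tags per 100 bases (height) of the 7 regions in the first 50 kb of X, each drawn at its true width by distance from the start of the first region (kb), with exact 95% Poisson intervals. All 7 stand above the dashed line, the mean of 13.0 tags per 100 bases over the effective genome, and the innermost is the lowest at 18.6. That mean is no threshold of the caller, since the upper quartile of all 316 X regions was 11.6.

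Away from the tip, the regions of high fold were gathered in 1 stretch of the X. A fold of at least 7 was given to 29 of the 316 X regions, 9.18% (6.23 to 12.9), where 2.92% of the whole larger list and 0.567% (0.324 to 0.919) of the autosomal regions outside the proximal 2 Mb had one. Beyond the bound, on the centromeric part of X, the share was much the same, 10 of 113 or 8.85% (4.33 to 15.7). Of the 29 regions, 17 followed each other at less than 250 kb from 8899899 to 10234422. The other 12 were spread over the rest of the euchromatic X. The fold limit, the distance and the stretch were chosen after the values were seen, so they describe these libraries and were not tested. On the autosomal arms the longest such chain held 5 regions, on 2R from 2161557 to 2350285, just outside the proximal window.

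The stretch was 1.33 Mb long, 6.56% of the X considered, and held 52 regions, or 39.0 per Mb (29.1 to 51.1). The X without the stretch and the tip held 13.5 per Mb (11.9 to 15.3). The ends of the stretch were set by high-fold regions, so its density is not independent of that choice. By fixed 1 Mb bins, the bin from 9000001 to 10000000 held 37 regions (26.1 to 51.0) and the next one 23. The other 18 complete X bins held 6 to 23 with a median of 12. On the autosomal arms outside the proximal 2 Mb the median bin held 25 to 36 regions and the fullest 42 to 58. A count of 37 was thus high for X and not for these arms. The X bin from 9000001 held 12 regions with a fold of at least 7. No complete or partial bin of the autosomal arms outside the proximal 2 Mb held more than 5. In the stricter list 24 of the 70 X regions, 34.3%, lay in the stretch.

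Regions of the stretch were all short, but slightly longer and richer in tags than other X regions by their medians. Their median tag count was 27.5 (interval of the median 21 to 35) against 18 (18 to 19) in the 257 X regions outside stretch and tip, their median length 184.5 against 171 bases, and their median tags per 100 bases 13.2 against 10.7. The median fold was 5.14 (4.67 to 6.55) against 4.67 (4.35 to 4.67). The stretch was chosen as a chain of folds of at least 7, so a higher fold there was partly fixed by that choice. The other differences were not tested. The longest region of the stretch had 321 bases and the highest count was 82 tags, so none was like the long regions of the tip. The 17 of high fold were 152 to 321 bases long and held 17 to 82 tags, with a median of 45, and 15 of them were also in the stricter list.

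The region of highest score in the stretch lay at 9409692 to 9409882, with 73 tags (57.2 to 91.8) in 191 bases and a fold of 9.59, and the next at 9996929 to 9997117, with 80 tags (63.4 to 99.6) and a fold of 7.80. That at 10234161 to 10234422 held 82 tags (65.2 to 102) and had a fold of 7.42, while that at 8987060 to 8987380 held 81 (64.3 to 101) at 7.23. The region that opened the stretch, at 8899899 to 8900169, held 52 tags (38.8 to 68.2) and had a fold of 8.43, while that at 10014797 to 10014984 held 46 (33.7 to 61.4) at 9.33. Both regions of highest score were called beside another with fewer tags. In 6 pairs of neighbours of the stretch the edges were under 500 bases apart, such as 48 bases between 9409492 to 9409643, with 24 tags, and the region of 73 tags. Without the stretch and the tip, 12 of 257 X regions, 4.67% (2.44 to 8.01), had a fold of at least 7. This interval still lay above that of the pooled autosomal arms and those of 2L, 3L and 3R. It overlapped the interval of 2R, where 6 of 507 regions, 1.18% (0.436 to 2.56), had such a fold.

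**Figure D3:**
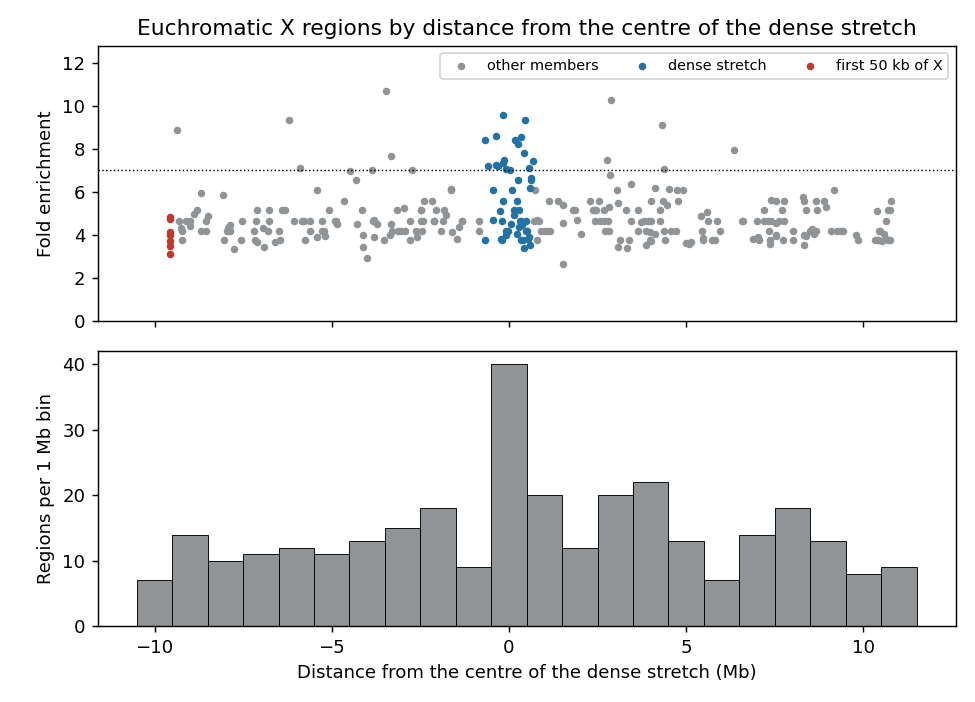
Fold (upper panel) and number of regions per 1 Mb bin (lower panel) of the 316 euchromatic X regions by distance (Mb) from the centre of the dense stretch, where the outermost bars cover less than 1 Mb of X. Of the 29 regions at or above the dotted line at a fold of 7, 17 belong to the stretch (blue), and the bin at its centre holds the most regions.

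**Figure D4:**
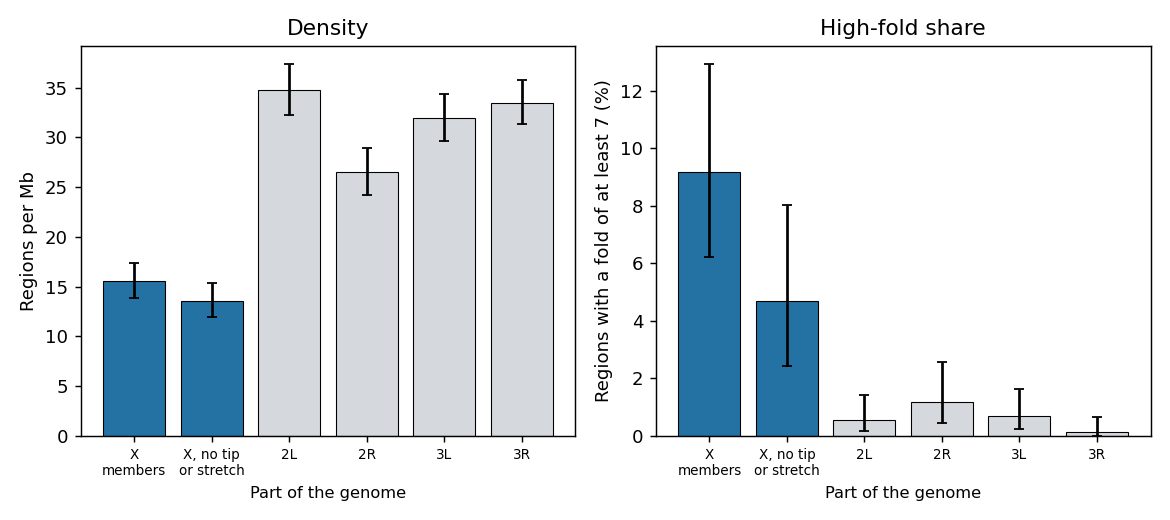
Regions per Mb with exact Poisson 95% intervals (left) and percent of regions with a fold of at least 7 with exact binomial 95% intervals (right) for X with and without tip and stretch and for the 4 autosomal arms outside the proximal 2 Mb. X has fewer regions per Mb than each arm, 15.5 against 26.5 to 34.7, and a higher share of high folds, 9.18% with tip and stretch and 4.67% without.

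The highest fold among the X regions lay outside the stretch, at 6101094 to 6101593, with 10.70 and 93 tags (75.1 to 114). The next, at 12439465 to 12439698, had a fold of 10.27 and only 26 tags (17.0 to 38.1). That at 3347163 to 3347367 had a fold of 9.34 and 26 tags. The region at 13894041 to 13894216 had a fold of 9.10 and 30 tags (20.2 to 42.8). Folds near 10 thus went with fewer than 30 tags as well as with 93. The fold is taken at the summit, so the intervals of these tag counts are not errors of the folds. No interval of a fold was available.

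The region of highest score lay at 13939734 to 13940421, with 448 tags (407 to 491) in 688 bases, 65.1 tags per 100 bases, a fold of 7.06 and a score of 550.25. It was the only one of the 316 with an FDR below 100%, at 16.67%, which is 0.316% of the X regions (0.00801 to 1.75) where 0.539% of the whole list had such an FDR. In the stricter list its FDR was 9.09%. The other 315 regions of the larger list had an FDR of 100%, which does not set them apart from regions called with the libraries exchanged. The score of the next region, in the tip, was 221.55. The score that the stricter cutoff asks for, 40, was reached by 100 X regions, 31.6% (26.6 to 37.1), against 33.8% of the whole list. On the autosomal arms outside the proximal 2 Mb the share was 28.4% (26.7 to 30.1). Of the 10 highest scores 4 belonged to the tip, 2 to the stretch and 4 to other places.

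Long regions were few and held a large share of the tags. Only 13 X regions, 4.11% against 4.21% of the whole list, had at least 500 bases, against 0.957% (0.632 to 1.39) of the autosomal regions outside the proximal 2 Mb, and they held 3663 tags, 34.2% of those on X. At least 100 tags were found in 14 regions, 4.43% against 4.36% of the whole list and 0.603% of these autosomal regions. Without the tip both X shares were 7 of 309, 2.27% (0.916 to 4.61). Arm 2R alone had similar shares, 13 of 507 regions (2.56%) by length and 11 of 507 (2.17%) by tags. On 2L, 3L and 3R the shares were 0.231 to 1.25% by length and 0.115 to 0.417% by tags. Of the 13 long regions 6 were in the tip. The other 7 included a nearly unbroken run of 3 from 11090033 to 11095198, separated by 3 bases each, which held 840 tags (784 to 899) over 5166 bases. Its middle region, 11091253 to 11094355, was the longest of the 316 with 3103 bases and had the most tags, 514 (471 to 560), at a fold of 4.56, and its neighbours had 182 tags at a fold of 5.39 and 144 tags at 2.65. The long region at 13684787 to 13685985 held 304 tags (271 to 340) and had a fold of 6.17, while that at 12657318 to 12658134 held 217 (189 to 248) at 5.50.

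Neighbouring X regions stood a median of 37.7 kb apart, centre to centre (interval of the median 31.1 to 47.0, quartiles 15.7 and 92.3, n = 315 distances), with a mean of 64.6 kb. On the autosomal arms outside the proximal 2 Mb the medians were 17.0 to 19.0 kb. Within the stretch the median distance was 18.9 kb (14.4 to 23.7, n = 51), close to those arms. Edges were under 10 kb apart in 59 of the 315 steps and under 500 bases in 21, of which 6 were in the tip and 6 in the stretch. Merging regions less than 10 kb apart left 257 places. The longest gaps without a region were 460 kb between 8247889 and 8707865 before the stretch, 452 kb between 19429231 and 19881600, and 404 kb between 1082400 and 1486174. The regions at the edges of these gaps had 16 to 22 tags and folds of 3.74 to 5.88.

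**Figure D5:**
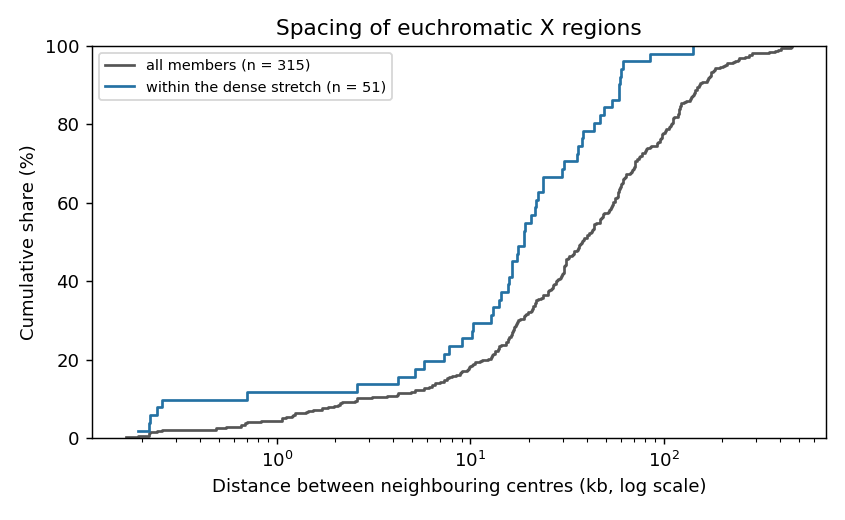
Cumulative share (%) of distances between neighbouring centres (kb, log scale) for all 316 euchromatic X regions (grey, 315 distances) and within the dense stretch (blue, 51 distances). The median is 37.7 kb for all and 18.9 kb within the stretch.

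Of 408 windows of 50 kb, 202 held a region of the euchromatic X, 124 of them just 1 and 51 of them 2. The densest was the first window, with the 7 regions of the tip. Next came 5 windows with 4 regions each, and 4 of these touched the stretch. The window from 9350001 held 4 regions with 17 to 19 tags and folds of 3.74 to 5.60, none of them in the stricter list. The window from 9800001 held regions of 21 to 29 tags, among them 9835838 to 9836069 with a fold of 8.24. In the window from 9900001, the region at 9901223 to 9901508 held 63 tags (48.4 to 80.6) at a fold of 8.54, while that at 9942937 to 9943043 held 55 tags in only 107 bases at a fold of 4.44. The window from 10150001 held regions of 29 to 45 tags with folds of 3.55 to 6.67, of which 3 were in the stricter list. The fifth such window, from 13550001, held regions of 15 to 26 tags with folds of 3.72 to 5.60, and none was in the stricter list.

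The stricter list held all of the tip and a smaller share of the other X regions. Of the 316 regions 69, 21.8% (17.4 to 26.8), overlapped a stricter region by at least 1 base, against 26.4% of the whole larger list. On the autosomal arms outside the proximal 2 Mb the share was 20.1% (18.7 to 21.7). For 51 X regions both lists gave identical bounds. The overlapping share was 7 of 7 in the tip, 24 of 52 in the stretch (46.2%, 32.2 to 60.5) and 38 of 257 elsewhere (14.8%, 10.7 to 19.7). The stretch had been chosen by fold, so its share is not independent of that choice. Of the 70 stricter X regions 1 had no counterpart in the larger list, at 19029543 to 19029722 with 22 tags and a fold of 5.08. Of the 100 X regions with a score of at least 40, 33 were missing from the stricter list, so the lists were not nested on X either. In the stricter list 22 of 70 X regions, 31.4% (20.9 to 43.6), had a fold of at least 7, against 15 of 607 autosomal regions, 2.47% (1.39 to 4.04), and 101 of all 1079 stricter regions, 9.36%.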

How the data were processed

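Per the submitters' processing notes, Bowtie aligned the reads of 1 Deformed and 1 control library; not given in the sources used here are its version, how it treated repeats, and the genome build. Regions were called with MACS 1.4.0beta, per the file headers, using a fixed fragment length of 50 bases, a tag size of 40 bases, backgrounds over 1000 and 10000 bases, and at most 4 (Deformed) or 3 (control) tags kept per position. The p-value cutoff was 0.001 for the larger and 0.0001 for the stricter list. The deposited tag count per region is a whole number, the deposited p-value column is a score (minus 10 log10 of p), the deposited fold is a ratio, and the deposited FDR is a percent.

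The Release 6 gene table at hand was not used for positions: 564 of its 4226 genes on 3R start past the last deposited region. The X gene list chosen for this work was therefore not counted. Places were named by rule: the 10 highest scores, the first 50 kb, the 5 regions with most tags and the 5 longest, the densest 50 kb windows with ties, and the 3 longest gaps. The dense stretch, the fold limit of 7, the repeated fold values and other high-fold regions were picked after their values were seen. The arms' lengths were taken as the end of their last region. The rule and the lists were chosen with earlier results of these data known. No test was run, since each group holds 1 library. Counts, windows, overlaps and intervals were computed with Python 3.11.15, numpy 2.4.6, pandas 2.3.3 and scipy 1.17.1, tested on simulated positions, and plotted with matplotlib 3.10.9. Medians have order-statistic 95% intervals.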

Additional observations from a re-analysis of the deposited data

How the results depend on the processing

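The stretch and its limits, and the alternatives without it, were chosen after seeing the data. The number of X regions was 70 in the stricter list and 100 at a score of at least 40, by construction fewer. The density became 3.44 and 4.91 per Mb there, and 12.6 after merging under 10 kb. In the stricter list and at a score of at least 40 the medians were 35 and 29 tags, 202 and 224 bases, 17.6 and 12.5 tags per 100 bases, folds of 5.77 and 5.14, scores of 54.2 and 51.7, and a spacing of 101 and 107 kb, and merging gave 54.9 kb. Without the stretch the share found in the stricter list was 17.0%. The share of high folds was 15.5% at a limit of 6, 3.80% at 8, 31.4% in the stricter list and 4.55% without the stretch. The chain of 17 held 24 regions at a limit of 6 and 13 in the stricter list, but only 4 at a limit of 8 and 4 with regions under 100 kb apart. The densest window outside the tip held 7 regions when windows were 100 kb wide. The tip kept 7 regions in every alternative run. The score limit and the limits of 25 and 100 kb could not change this. The tip's lowest score was 70.81, and no region lay between 14127 and 186867. Merging under 10 kb was not run for the tip, whose gaps were 21 to 498 bases. The 2 lists come from the same libraries, so they are not independent. Deposited tag counts as low as 13 limit what single regions show. No paired analysis was possible because each group holds 1 library.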
